A study of Mus musculus with 9 samples.

Results

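Transcript levels of 34 genes of cholesterol and fatty acid synthesis were followed in mouse kidney. The genes were taken by symbol from a list by function, which was drawn up with earlier results of these data known, and all 34 were found among the 56923 gene identifiers of the count table. They comprise 17 enzymes of sterol synthesis, 5 genes that control the sterol regulatory element-binding proteins (SREBPs), 6 genes of the liver X receptors (LXRs) and of sterol transport, and 6 genes of fatty acid synthesis. RNA was sequenced in 9 kidney libraries of wild-type mice, 3 in each of 3 groups. The sham group had the operation but no ischemia-reperfusion (IR) injury, and PBS (phosphate-buffered saline) is its treatment label. In AKI_PBS, acute kidney injury (AKI) was followed by PBS. Mice of AKI_PTPi_mEVs had AKI and were given extracellular vesicles from milk, loaded with an siRNA that targets PTP1B (gene Ptpn1), a tyrosine phosphatase. The labels name no injured group with unloaded vesicles or with another siRNA, so carrier and siRNA cannot be told apart in AKI_PTPi_mEVs. The sources used here state no strain, age, time after injury or batch. They do not say whether each library is a separate mouse, and p-values then measure only the spread between these samples, which may be technical.

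Cholesterol is built from acetyl-CoA through mevalonate, isoprenoids, squalene and lanosterol, and saturated fatty acids are built from the same precursor through malonyl-CoA. When sterols are scarce, SCAP escorts SREBPs from the endoplasmic reticulum to the Golgi, where they are cleaved into transcription factors for these enzymes, and INSIG proteins hold the complex back when sterols are plentiful. LXRs are nuclear receptors activated by oxysterols, and they raise genes that export cholesterol and genes that make fatty acids. The proximal tubule, the main cell mass of the kidney cortex, burns fatty acids as its chief fuel and stores lipid when injured.

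The libraries held from 9467851 to 11389479 counts each. After the filter on low counts 17036 genes were tested, with all 34 members among them. Levels are in CPM, the count of a gene as a share of its library's total, scaled to a round number of reads and corrected by the TMM factor. Differences are log2 fold changes ± their standard error with n = 3 libraries per group, and a gene was called where edgeR's quasi-likelihood test gave an adjusted p under 0.05 over the 17036 genes. Ptpn1 had 80.9, 90.5 and 98.8 CPM in sham, 123, 148 and 170 CPM in AKI_PBS, and 106, 106 and 94.0 CPM in AKI_PTPi_mEVs. AKI_PBS replicate 3 stood apart from the other AKI_PBS libraries on the third principal component (-44.1 against 28.3 and 20.6, with 6.27% of the variance). Because these are whole kidneys, fewer cells of a type and less RNA per cell cannot be told apart in any result below. The proximal tubule markers summed to between 10162 and 13101 CPM in sham, 3572 and 5452 CPM in AKI_PBS and 7215 and 10721 CPM in AKI_PTPi_mEVs. Of these 10 markers 9 were lower in AKI_PBS than in sham, and 8 were higher and 1 lower in AKI_PTPi_mEVs than in AKI_PBS. Neutrophil markers summed to 0.406 to 0.837 CPM in sham, 14.01 to 27.7 CPM in AKI_PBS and 1.84 to 2.29 CPM in AKI_PTPi_mEVs. Red blood cell markers summed to 91.7 to 123 CPM in sham, 115 to 257 CPM in AKI_PBS and 21.0 to 48.6 CPM in AKI_PTPi_mEVs. The nuclear RNAs Malat1 and Neat1 rose in AKI_PBS (1.09 ± 0.15 and 1.57 ± 0.23, with edgeR adjusted p = 5.66e-05 and 8.78e-05) and were lower in AKI_PTPi_mEVs than in AKI_PBS (-1.12 ± 0.15 and -1.55 ± 0.23, with edgeR adjusted p = 6.28e-05 and 0.000135). The part of these shifts in the results on the members was not tested.

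The stretches just before the start sites of 5 members show the letters through which these genes are classically grouped, and they stand here because the 5 differed in how they moved: Hmgcs1, Mvk, Mvd and Fasn were lower in AKI_PBS and Hsd17b7 was higher. Sequences are from RefSeq on GRCm38.p6, given 5′ to 3′ on the gene's strand, without exon bases. Capitals mark the SREBP element TCACNCCAC, the NF-Y box CCAAT, which reads as ATTGG when it lies on the other strand, and the palindromic E-box CACGTG, each of them searched on both strands.

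Hmgcs1 (chr13:119690101-119690350, + strand): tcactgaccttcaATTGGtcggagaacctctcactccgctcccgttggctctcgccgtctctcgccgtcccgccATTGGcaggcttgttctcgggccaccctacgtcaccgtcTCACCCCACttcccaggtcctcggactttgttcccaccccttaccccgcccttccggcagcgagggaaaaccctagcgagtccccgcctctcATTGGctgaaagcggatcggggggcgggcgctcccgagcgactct
Mvk (chr5:114444061-114444268, + strand): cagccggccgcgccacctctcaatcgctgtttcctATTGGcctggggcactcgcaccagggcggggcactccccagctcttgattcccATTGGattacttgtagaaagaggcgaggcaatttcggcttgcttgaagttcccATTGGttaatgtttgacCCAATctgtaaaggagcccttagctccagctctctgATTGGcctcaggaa
Mvd (chr8:122443423-122443672, - strand): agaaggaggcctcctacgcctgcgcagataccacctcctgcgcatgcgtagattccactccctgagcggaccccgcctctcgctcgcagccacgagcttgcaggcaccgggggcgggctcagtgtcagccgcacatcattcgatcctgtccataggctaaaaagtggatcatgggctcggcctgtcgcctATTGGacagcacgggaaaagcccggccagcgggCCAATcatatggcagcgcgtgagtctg
Hsd17b7 (chr1:169969242-169969408, - strand, ending 36 bases before the start): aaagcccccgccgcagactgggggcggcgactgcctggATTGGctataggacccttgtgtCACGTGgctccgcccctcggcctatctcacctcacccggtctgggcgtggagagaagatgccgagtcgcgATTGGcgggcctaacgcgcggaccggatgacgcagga
Fasn (chr11:120824548-120824797, - strand): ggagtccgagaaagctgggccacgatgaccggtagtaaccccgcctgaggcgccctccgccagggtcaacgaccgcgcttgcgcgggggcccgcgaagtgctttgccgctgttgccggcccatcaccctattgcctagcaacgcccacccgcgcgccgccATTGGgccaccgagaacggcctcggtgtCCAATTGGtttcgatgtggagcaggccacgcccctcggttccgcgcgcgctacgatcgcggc

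Hmgcs1 holds the only SREBP element and 3 NF-Y boxes, Mvk holds 5 NF-Y boxes, and Hsd17b7 holds the E-box with 2 NF-Y boxes in the stretch printed. In Fasn the boxes of opposite strands overlap in the run CCAATTGG. Windows of 250 bases before the start were available for 27 members in 36 windows, several start sites of a gene counted apart. Fdps, Fdft1, Sqle, Stard4, Abcg1, Scd1 and Scd2 had none in the table. An NF-Y box was present in 55.6% of the member windows and in 33.8% of all 32851 windows of the same length. By list, 13 of 14 sterol enzymes, 4 of 5 SREBP control genes, 1 of 4 LXR and transport genes and 1 of 4 fatty acid genes held a box in any of their windows. These are counts of genes, unlike the shares of windows above. The share of all genes with a box in any window was not counted. The E-box was present in 16.7% of member windows and 6.02% of all windows, and the SREBP element in 2.78% and 1.05%. The LXR element (a direct repeat of AGGTCA spaced by 4 bases) was found in none of the 36 windows and in 0.0152% of all. These matches describe letters in short windows, and the windows of a gene and of divergent neighbours share sequence, so no test was made.

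**Figure D1:**
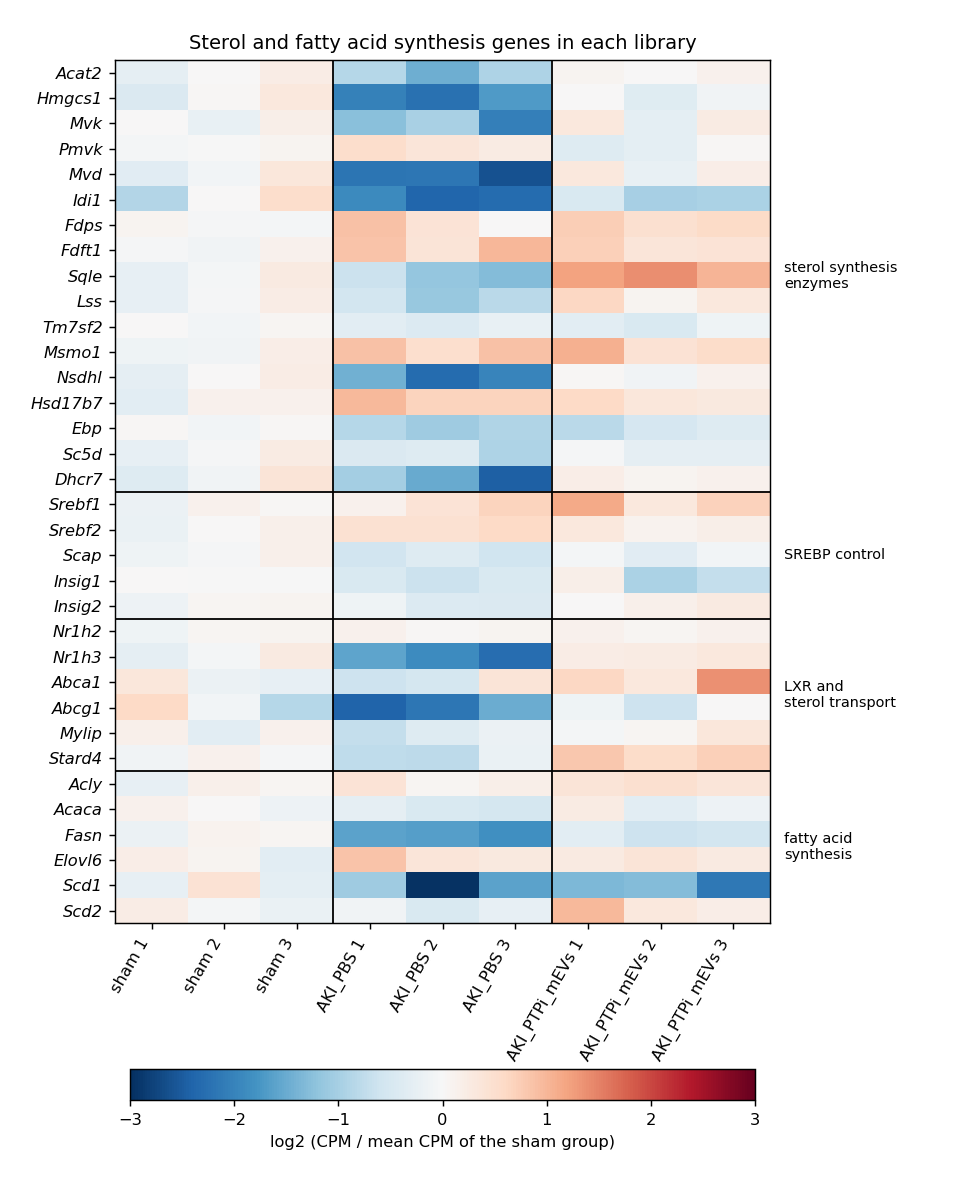
Level of each of the 34 genes (rows) in each of the 9 libraries (columns), as the log2 ratio of its CPM to the mean CPM of the sham group; blue is lower, red higher, and black lines part the groups and the 4 gene lists. Most sterol enzymes are blue in the 3 AKI_PBS libraries, with Pmvk, Fdft1, Msmo1 and Hsd17b7 red there, and Sqle is red in the 3 AKI_PTPi_mEVs libraries.

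AKI_PBS against sham describes the injured kidney. Of the 34 genes 17 fell, 6 rose and 11 did not pass, beside 27.9% of all tested genes called lower, 27.8% called higher and 55.7% called in either direction. Called members were thus 67.6% of the list, and those that changed at least 2-fold comprised 12 falls and 0 rises, where 16.7% of all genes fell and 14% rose by that much. The median log2 fold change of the members was -0.52, where that of all tested genes was 0.03. In 26 of 34 members the AKI_PBS and sham libraries did not overlap, as in 62.1% of all genes. AKI_PTPi_mEVs against AKI_PBS compares the injured groups, and 19 members were higher, 1 lower and 14 not called, beside 25.4% higher, 25.8% lower and 51.1% in either direction of all genes. Here 14 members were at least 2-fold higher and 0 at least 2-fold lower, beside 13.4% of all genes in each direction. The median was 0.42 for the members against -0.03 for all genes, and 22 of 34 did not overlap (57.9% of all genes). Scaling by library totals alone gave 16 higher and 3 lower. Both comparisons use the same AKI_PBS libraries, so a low AKI_PBS value enters both with opposite sign, and their values are set side by side below without a test of their relation.

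**Figure D2:**
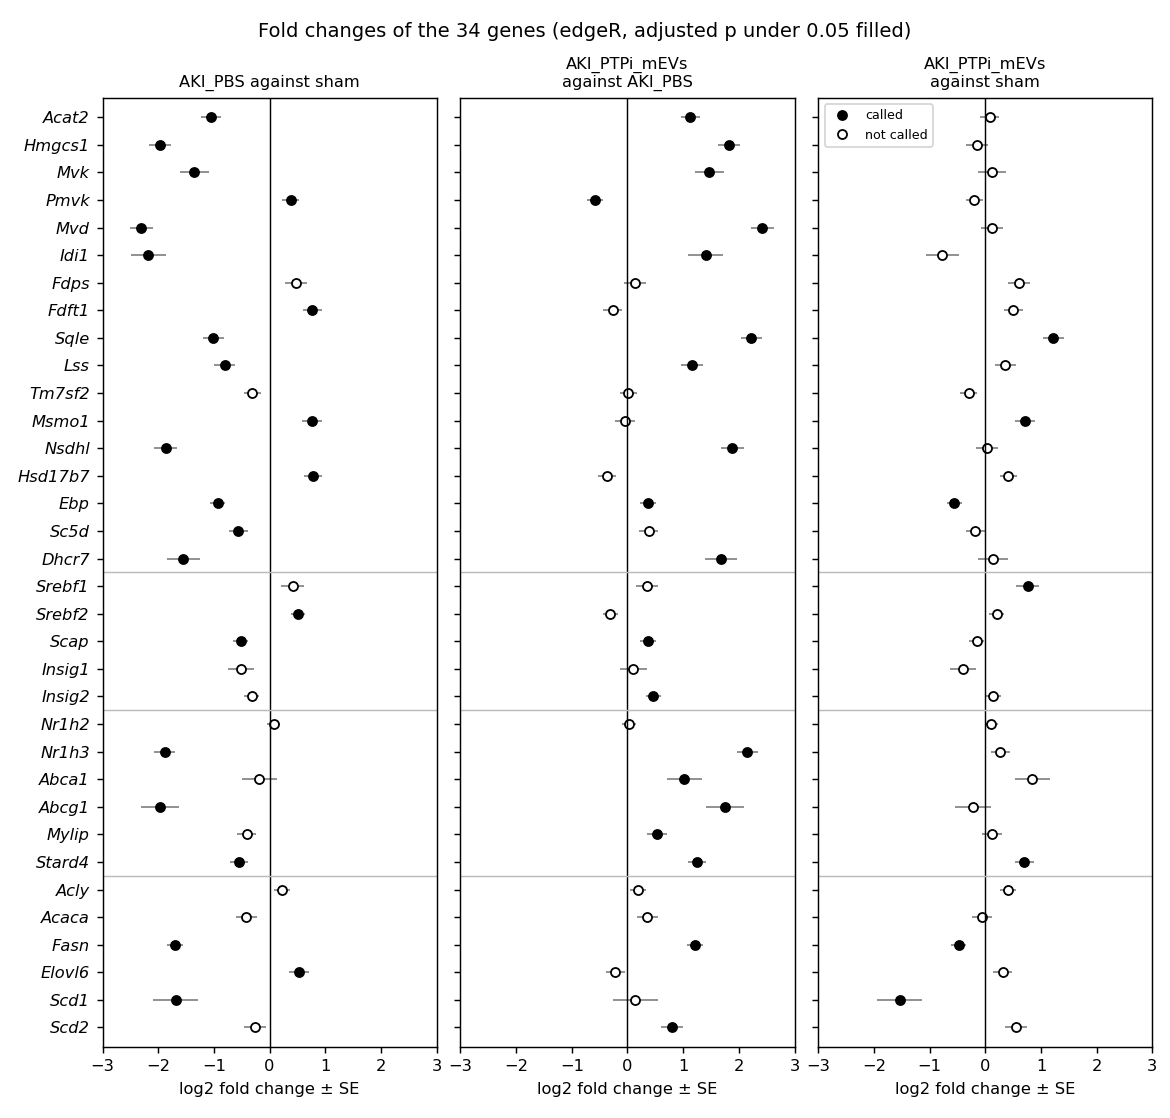
Log2 fold change ± SE of each member in the 3 comparisons (horizontal axes), from edgeR with n = 3 libraries per group; filled points passed an adjusted p under 0.05, and grey lines part the gene lists. Points reach -2.31 for Mvd in AKI_PBS against sham and 2.42 for Mvd in AKI_PTPi_mEVs against AKI_PBS, while in AKI_PTPi_mEVs against sham 7 points are filled.

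Of the 17 sterol synthesis enzymes 11 fell and 4 rose in AKI_PBS against sham (median -0.93), and 10 were higher and 1 lower in AKI_PTPi_mEVs than in AKI_PBS (median 1.13). The called shares were 88.2% and 64.7%, beside 55.7% and 51.1% of all tested genes. The summed level of the enzymes was 1294 to 1850 CPM in the sham libraries, 694 to 871 CPM in AKI_PBS and 1492 to 1731 CPM in AKI_PTPi_mEVs, so AKI_PBS lay below both other groups. The steps to mevalonate and isoprenoids came first. Acat2, the cytosolic thiolase that joins acetyl-CoA units, had 193, 236 and 270 CPM in sham, 130, 84.8 and 123 CPM in AKI_PBS and 246, 235 and 256 CPM in AKI_PTPi_mEVs. Its AKI_PBS libraries were all below the other 6, with a log2 fold change of -1.05 ± 0.17 against sham (edgeR adjusted p = 0.000256) and 1.13 ± 0.17 between the injured groups (edgeR adjusted p = 0.000201). Hmgcs1, the cytosolic HMG-CoA synthase, had 360, 495 and 606 CPM in sham, 120, 103 and 150 CPM in AKI_PBS, and 492, 378 and 452 CPM in AKI_PTPi_mEVs. The highest AKI_PBS library was thus below the lowest of both other groups. It fell 3.91-fold (-1.97 ± 0.20, edgeR adjusted p = 6.89e-06) and was 3.54-fold higher in AKI_PTPi_mEVs than in AKI_PBS (1.82 ± 0.20, edgeR adjusted p = 1.76e-05).

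Mvk, mevalonate kinase, had 18.5, 15.6 and 20.7 CPM in sham, 7.69, 9.35 and 4.42 CPM in AKI_PBS and 22.8, 14.96 and 21.8 CPM in AKI_PTPi_mEVs. AKI_PBS stood below both groups, by -1.35 ± 0.26 against sham (edgeR adjusted p = 0.000786), and AKI_PTPi_mEVs was higher than AKI_PBS by 1.47 ± 0.26 (edgeR adjusted p = 0.00054). Mvd, the decarboxylase that ends the mevalonate steps, had the largest fold among the members in both of these comparisons. It held 111, 133 and 177 CPM in sham, 30.9, 31.5 and 23.0 CPM in AKI_PBS, and 176, 120 and 162 CPM in AKI_PTPi_mEVs. It fell 4.94-fold (-2.31 ± 0.21, edgeR adjusted p = 2.44e-06) and was 5.36-fold higher between the injured groups (2.42 ± 0.21, edgeR adjusted p = 2.85e-06), with no overlap. Idi1, the isomerase that makes the isoprenoid building block, fell from 17.0, 31.2 and 44.8 CPM in sham to 8.30, 5.92 and 6.27 CPM (-2.18 ± 0.31, edgeR adjusted p = 8.28e-05). In AKI_PTPi_mEVs it had 22.7, 15.6 and 15.9 CPM, above AKI_PBS (1.41 ± 0.31, edgeR adjusted p = 0.00237) and overlapping sham. Sham replicate 1 was the lowest sham library of Idi1, and the SD in sham was 45.0% of the mean.

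Pmvk, phosphomevalonate kinase, sits between Mvk and Mvd in the pathway and moved the other way. It had 29.6, 30.5 and 32.7 CPM in sham, 44.3, 39.8 and 36.7 CPM in AKI_PBS, and 23.7, 25.4 and 31.7 CPM in AKI_PTPi_mEVs. The AKI_PBS libraries were above the other 6. Its rise against sham was 0.38 ± 0.15 (edgeR adjusted p = 0.0434), and it was the 1 member called lower in AKI_PTPi_mEVs than in AKI_PBS (-0.58 ± 0.15, edgeR adjusted p = 0.00583). The rise lost its call with 7 of the 9 libraries left out in turn, at 0.30 to 0.41: sham replicates 1, 2 and 3 (0.34, 0.36 and 0.41), AKI_PBS replicates 1 and 2 (0.30 and 0.39) and AKI_PTPi_mEVs replicates 1 and 2 (0.37 and 0.35). It was also lost with the replicate number as a block (edgeR adjusted p = 0.0642) and without a low-count filter (0.34, edgeR adjusted p = 0.139).

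Fdps, the farnesyl diphosphate synthase at the branch to isoprenoids and sterols, did not pass in any comparison (0.48 ± 0.20, 0.13 ± 0.20 and 0.61 ± 0.20, with edgeR adjusted p = 0.0583, 0.592 and 0.0629). It held 16.1 to 17.7 CPM in sham, 17.0 to 30.8 CPM in AKI_PBS and 23.5 to 28.1 CPM in AKI_PTPi_mEVs. Without AKI_PBS replicate 3, its lowest injured library, it passed against sham at 0.66, as it did with library totals (0.56). Fdft1, squalene synthase, commits farnesyl units to sterols. Its levels were 39.2, 37.0 and 43.4 CPM in sham, 72.1, 52.3 and 79.4 CPM in AKI_PBS and 65.0, 51.4 and 52.9 CPM in AKI_PTPi_mEVs. It rose in AKI_PBS (0.77 ± 0.17, edgeR adjusted p = 0.00175), and the injured groups overlapped (-0.27 ± 0.17, edgeR adjusted p = 0.192). Without AKI_PBS replicate 2 the latter passed at -0.42. In the GENCODE M21 annotation (GRCm38), 18.3% of the exon bases of Fdft1 overlap those of Ctsb, a lysosomal protease gene, on the opposite strand, and Ctsb held 888 to 991 CPM in sham and 1077 to 1258 CPM in AKI_PBS. In AKI_PTPi_mEVs Ctsb held 1238 to 1633 CPM. The sources used here do not state whether counting used strand, so reads of the 2 genes may have been mixed or set aside in the exons they share. The part of Ctsb in the values of Fdft1 was not tested.

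Sqle, the squalene epoxidase that adds oxygen before the ring closes, was the sterol enzyme that differed in all 3 comparisons while keeping its call whichever library was left out. Its levels were 56.7, 64.5 and 81.2 CPM in sham, 43.0, 30.02 and 27.5 CPM in AKI_PBS, and 156, 178 and 136 CPM in AKI_PTPi_mEVs. No library of a group overlapped those of another, and AKI_PTPi_mEVs was the highest group. It fell by 1.01 ± 0.19 on the log2 scale against sham (edgeR adjusted p = 0.000672), was 4.68-fold higher between the injured groups (2.23 ± 0.20, edgeR adjusted p = 3.22e-06) and 2.33-fold higher in AKI_PTPi_mEVs than in sham (1.22 ± 0.19, edgeR adjusted p = 0.00175). Lss, lanosterol synthase, closes the rings and had 25.3, 29.3 and 34.9 CPM in sham, 20.4, 13.6 and 17.1 CPM in AKI_PBS and 45.9, 31.4 and 37.3 CPM in AKI_PTPi_mEVs. AKI_PBS was below the other groups without overlap (-0.81 ± 0.20 and 1.17 ± 0.20, with edgeR adjusted p = 0.00361 and 0.000363).

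**Figure D3:**
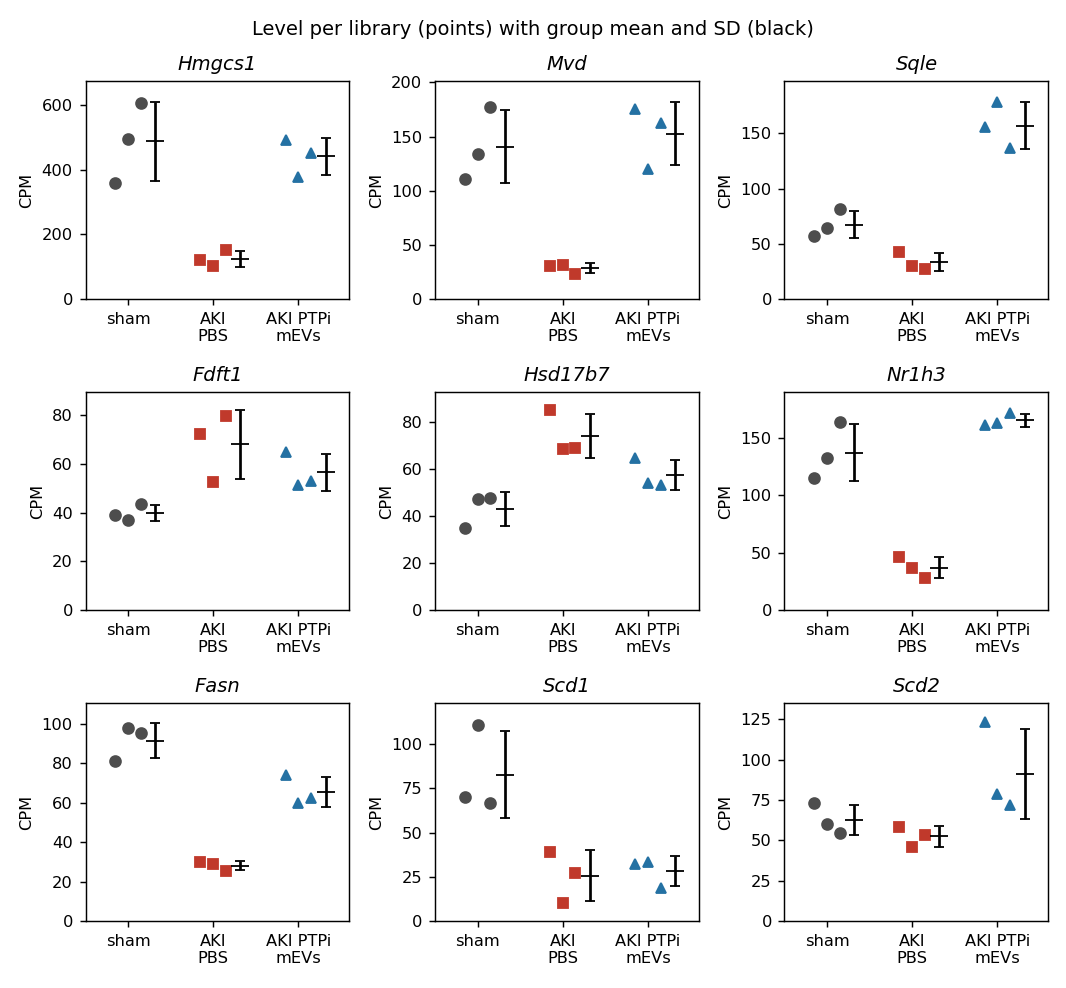
CPM of 9 members in each library (points; vertical axes start at 0) with the mean and SD of each group of 3 in black. Hmgcs1, Mvd, Nr1h3 and Fasn are low in AKI_PBS, Fdft1 and Hsd17b7 are high there, Sqle is highest in AKI_PTPi_mEVs, and Scd1 is low in both injured groups.

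The enzymes after lanosterol did not move as a block. Nsdhl, a dehydrogenase that removes methyl groups, and Dhcr7, the reductase of the last step, fell by 1.86 ± 0.20 and 1.55 ± 0.29 on the log2 scale (edgeR adjusted p = 1.08e-05 and 0.000621). Nsdhl went from 75.9, 93.4 and 107 CPM to 34.1, 18.7 and 23.2 CPM in AKI_PBS, and AKI_PTPi_mEVs had 94.0, 86.0 and 101 CPM. Dhcr7 had 24.3, 29.7 and 41.5 CPM in sham, 15.7, 11.1 and 5.83 CPM in AKI_PBS and 36.8, 33.4 and 34.7 CPM in AKI_PTPi_mEVs. In both genes AKI_PBS lay below the other groups, and AKI_PTPi_mEVs was higher than AKI_PBS (1.89 ± 0.21 and 1.68 ± 0.29, with edgeR adjusted p = 1.49e-05 and 0.000432). Ebp, the sterol isomerase, was lower in both injured groups than in sham. Its 177, 164 and 178 CPM in sham stood above 96.0, 83.1 and 92.7 CPM in AKI_PBS and 98.1, 122 and 132 CPM in AKI_PTPi_mEVs. The falls against sham were -0.93 ± 0.14 in AKI_PBS (edgeR adjusted p = 0.000103) and -0.56 ± 0.14 in AKI_PTPi_mEVs (edgeR adjusted p = 0.0182). The difference between the injured groups was 0.37 ± 0.14 (edgeR adjusted p = 0.0372), a call lost without AKI_PBS replicate 2 (0.31), AKI_PTPi_mEVs replicate 2 (0.36) or 3 (0.30), with library totals (0.26), with the replicate block (0.37, edgeR adjusted p = 0.0551) and with only the groups compared in the fit (0.38, edgeR adjusted p = 0.0582).

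Msmo1, the oxidase that starts the removal of methyl groups, and Hsd17b7, the reductase that ends each round of it, rose where Nsdhl, which acts between them, fell. Msmo1 had 30.9, 31.4 and 39.1 CPM in sham, 62.0, 47.9 and 61.7 CPM in AKI_PBS and 70.6, 45.8 and 49.9 CPM in AKI_PTPi_mEVs, and both injured groups lay above sham. The rise in AKI_PBS was 0.76 ± 0.18 (edgeR adjusted p = 0.00342), and the injured groups overlapped (-0.04 ± 0.18, edgeR adjusted p = 0.857). Hsd17b7 had 34.9, 47.1 and 47.5 CPM in sham, 84.9, 68.5 and 68.8 CPM in AKI_PBS and 64.9, 54.3 and 53.1 CPM in AKI_PTPi_mEVs. It rose in AKI_PBS (0.78 ± 0.16, edgeR adjusted p = 0.00109), and in AKI_PTPi_mEVs its libraries lay between the other groups, at -0.37 ± 0.16 against AKI_PBS (edgeR adjusted p = 0.0659; passing at -0.47 with library totals and -0.40 with the stricter filter) and 0.41 ± 0.16 against sham (edgeR adjusted p = 0.104). Sc5d, the desaturase before Dhcr7, fell in AKI_PBS (-0.56 ± 0.17, edgeR adjusted p = 0.0148), a call lost without sham replicate 3 (-0.42), and it did not pass between the injured groups (0.38 ± 0.17, edgeR adjusted p = 0.0829), though it did without a low-count filter (0.42). It had 61.1 to 86.8 CPM in sham, 38.2 to 55.8 CPM in AKI_PBS and 60.7 to 71.5 CPM in AKI_PTPi_mEVs. Tm7sf2, a sterol reductase of the nuclear and endoplasmic reticulum membrane, had 20.6 to 22.6 CPM in sham, 16.5 to 18.6 CPM in AKI_PBS and 15.8 to 19.9 CPM in AKI_PTPi_mEVs. It passed in none of the comparisons (-0.31 ± 0.15, 0.01 ± 0.15 and -0.30 ± 0.15, with edgeR adjusted p = 0.0983, 0.949 and 0.22), although both injured groups lay below sham without overlap.

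Within a group the sterol enzymes tended to have their extremes in the same library. Of the 17, 16 had their highest sham level in sham replicate 3 and 12 their lowest in sham replicate 1. In AKI_PBS 11 were highest in replicate 1 and none lowest there, and in AKI_PTPi_mEVs 11 were highest in replicate 1 and 13 lowest in replicate 2. These counts describe the libraries after TMM scaling, and no test was made, since the genes of a library are not independent. The share of all tested genes with extremes in these libraries was not counted. The pattern is thus not shown to be particular to the sterol enzymes.

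The control genes of the SREBP pathway moved less than the enzymes, between -0.52 and 0.51 on the log2 scale in AKI_PBS against sham, with 1 of 5 higher and 1 lower. This was a called share of 40%, beside 55.7% of all tested genes. Srebf2, which encodes the SREBP that mainly drives sterol enzymes, had 70.7, 80.9 and 90.2 CPM in sham, 110, 111 and 122 CPM in AKI_PBS and 100.2, 86.3 and 91.1 CPM in AKI_PTPi_mEVs. The AKI_PBS libraries were the highest, with a rise of 0.51 ± 0.13 (edgeR adjusted p = 0.0053), while most of the enzymes fell. Between the injured groups Srebf2 was not called (-0.31 ± 0.13, edgeR adjusted p = 0.0648), but it was with library totals (-0.41) and with the stricter filter (-0.34). Srebf1, which encodes the SREBPs that favour fatty acid synthesis, had 34.8, 42.9 and 40.6 CPM in sham, 42.9, 52.2 and 62.4 CPM in AKI_PBS and 86.8, 49.0 and 64.1 CPM in AKI_PTPi_mEVs. It did not pass in AKI_PBS against sham (0.41 ± 0.20, edgeR adjusted p = 0.098; 0.54 and passing without AKI_PBS replicate 1) or between the injured groups (0.35 ± 0.20, edgeR adjusted p = 0.165; 0.55 and passing without AKI_PTPi_mEVs replicate 2). The counts do not separate the Srebf1 transcripts that start at different promoters.

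Scap, the escort protein gene, fell from 80.9, 86.0 and 98.7 CPM in sham to 59.2, 67.8 and 58.1 CPM in AKI_PBS (-0.52 ± 0.14, edgeR adjusted p = 0.00576), and AKI_PTPi_mEVs had 85.3, 69.5 and 83.9 CPM. AKI_PBS was the lowest group without overlap. The difference between the injured groups was 0.37 ± 0.14 (edgeR adjusted p = 0.0378). That call was lost without sham replicate 2 (0.38), AKI_PBS replicate 1 (0.35) or 3 (0.33) and AKI_PTPi_mEVs replicate 1 (0.33) or 3 (0.34), with library totals (0.26), with the replicate block (0.36, edgeR adjusted p = 0.0632) and with only the groups compared in the fit (0.38, edgeR adjusted p = 0.0544). Insig1, which is itself an SREBP target, lay at 29.3, 29.0 and 29.0 CPM in sham and 21.4, 18.6 and 21.2 CPM in AKI_PBS. In AKI_PTPi_mEVs it was spread over 32.9, 14.96 and 17.8 CPM, the widest spread of any member there (SD 44.0% of the mean). None of its comparisons passed (-0.51 ± 0.24, 0.11 ± 0.24 and -0.41 ± 0.24, with edgeR adjusted p = 0.0805, 0.726 and 0.281). Without AKI_PTPi_mEVs replicate 1 its difference from sham was -0.82 and passed, and that in AKI_PBS against sham (-0.52) passed too, as it did without AKI_PTPi_mEVs replicate 2 (-0.54), without a low-count filter (-0.55) and with only the groups compared in the fit (-0.51). Insig2 had 90.3, 103 and 105 CPM in sham, 91.5, 74.8 and 73.7 CPM in AKI_PBS and 100.2, 111 and 119 CPM in AKI_PTPi_mEVs. It was higher in AKI_PTPi_mEVs than in AKI_PBS (0.46 ± 0.14, edgeR adjusted p = 0.0126), while its -0.32 ± 0.14 in AKI_PBS against sham did not pass (edgeR adjusted p = 0.0627). It did pass without sham replicate 1 (-0.39), without AKI_PBS replicate 1 (-0.43) and with the stricter filter (-0.34).

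The LXR and sterol transport genes held 488 to 526 CPM in sum in sham, 334 to 378 CPM in AKI_PBS and 570 to 653 CPM in AKI_PTPi_mEVs. In AKI_PBS 3 of 6 fell and 3 did not pass (median -0.48), and 5 of 6 were higher in AKI_PTPi_mEVs than in AKI_PBS (median 1.14). The called shares were thus 50% and 83.3%, beside 55.7% and 51.1% of all tested genes. The receptors differed from each other. Nr1h3, which encodes LXR alpha, had 114, 133 and 164 CPM in sham, 46.0, 36.9 and 28.3 CPM in AKI_PBS, and 161, 163 and 171 CPM in AKI_PTPi_mEVs. AKI_PBS stood apart below the other 6 libraries, at -1.89 ± 0.18 against sham (edgeR adjusted p = 4.23e-06), and AKI_PTPi_mEVs was 4.46-fold above AKI_PBS (2.16 ± 0.19, edgeR adjusted p = 2.83e-06). Nr1h2, which encodes LXR beta, had 173 to 200.2 CPM in sham, 194 to 208 CPM in AKI_PBS and 199 to 208 CPM in AKI_PTPi_mEVs, with overlap in each comparison. Its differences were 0.08 ± 0.12, 0.03 ± 0.12 and 0.10 ± 0.12 (edgeR adjusted p = 0.61, 0.862 and 0.618), and the spread in AKI_PTPi_mEVs was the smallest of any member there (SD 2.34% of the mean).

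The LXR targets of this list, Abcg1, Abca1 and Mylip, were all called higher in AKI_PTPi_mEVs than in AKI_PBS. All had negative values in AKI_PBS against sham, of which that of Abcg1 passed. These 3 do not stand for all genes that LXRs raise. Srebf1, given above, had a positive value in AKI_PBS against sham that did not pass (0.41 ± 0.20, edgeR adjusted p = 0.098). Nor did it pass between the injured groups (0.35 ± 0.20, edgeR adjusted p = 0.165). Genes that make fatty acids, which LXRs also raise, are given below, and 2 of 6 were called higher between the injured groups. Abcg1, a cholesterol exporter, had 48.2, 30.04 and 17.6 CPM in sham, 6.05, 7.12 and 11.3 CPM in AKI_PBS and 29.4, 20.9 and 31.99 CPM in AKI_PTPi_mEVs. AKI_PBS was lowest without overlap, by -1.97 ± 0.34 against sham (edgeR adjusted p = 0.000451), and AKI_PTPi_mEVs was higher than AKI_PBS by 1.75 ± 0.34 (edgeR adjusted p = 0.00123). Abca1, the exporter that loads nascent high-density lipoprotein, had 29.4, 20.5 and 19.5 CPM in sham and 15.04, 16.04 and 30.04 CPM in AKI_PBS, which overlapped (-0.18 ± 0.31, edgeR adjusted p = 0.642). With 35.5, 28.6 and 60.2 CPM, AKI_PTPi_mEVs overlapped AKI_PBS replicate 3 yet passed (1.02 ± 0.31, edgeR adjusted p = 0.016). That call was lost without AKI_PBS replicate 1 (0.85) or 2 (0.88) or AKI_PTPi_mEVs replicate 3 (0.67), and its direction against sham turned without sham replicate 1 (0.02). Mylip, an E3 ubiquitin ligase gene induced by LXRs, had 39.2 to 54.1 CPM in sham, 29.8 to 43.4 CPM in AKI_PBS and 47.3 to 61.8 CPM in AKI_PTPi_mEVs. Its -0.41 ± 0.18 against sham did not pass (edgeR adjusted p = 0.0645), but it did without sham replicate 2 (-0.56), without AKI_PBS replicate 3 (-0.55) and without a low-count filter (-0.45). It was higher in AKI_PTPi_mEVs than in AKI_PBS (0.53 ± 0.18, edgeR adjusted p = 0.0238), a call lost without AKI_PBS replicate 1 (0.41) or 2 (0.54) or AKI_PTPi_mEVs replicate 3 (0.43) and with library totals (0.43, edgeR adjusted p = 0.0511).

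Stard4, a soluble carrier of cholesterol whose gene is an SREBP target, was highest in AKI_PTPi_mEVs. Its levels were 68.6, 80.6 and 71.4 CPM in sham, 43.3, 42.9 and 64.3 CPM in AKI_PBS and 129, 108 and 121 CPM in AKI_PTPi_mEVs, and no 2 groups overlapped. It was 2.38-fold higher between the injured groups (1.25 ± 0.17, edgeR adjusted p = 6.59e-05). The fall against sham of 0.55 ± 0.17 on the log2 scale (edgeR adjusted p = 0.0127) lost its call without sham replicate 2 (-0.49) or AKI_PBS replicate 2 (-0.45).

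In fatty acid synthesis 2 of 6 genes fell and 1 rose in AKI_PBS, and 2 were higher in AKI_PTPi_mEVs than in AKI_PBS. Called shares of 50% and 33.3% stood beside 55.7% and 51.1% of all tested genes. The summed level overlapped between groups, at 446 to 536 CPM in sham, 343 to 462 CPM in AKI_PBS and 456 to 544 CPM in AKI_PTPi_mEVs. Acly, which makes cytosolic acetyl-CoA from citrate, had 156 to 207 CPM in sham, 194 to 249 CPM in AKI_PBS and 239 to 260 CPM in AKI_PTPi_mEVs and passed nowhere (0.22 ± 0.15, 0.19 ± 0.15 and 0.41 ± 0.15, with edgeR adjusted p = 0.209, 0.296 and 0.0803). Acaca, the carboxylase that makes malonyl-CoA, had 18.2 to 21.9 CPM in sham, 13.96 to 16.8 CPM in AKI_PBS and 16.0 to 23.9 CPM in AKI_PTPi_mEVs. It passed nowhere either (-0.41 ± 0.18, 0.36 ± 0.18 and -0.06 ± 0.18, with edgeR adjusted p = 0.0681, 0.116 and 0.876), except in AKI_PBS against sham without AKI_PTPi_mEVs replicate 1 (-0.42). Fasn, the fatty acid synthase, had 81.3, 97.7 and 95.5 CPM in sham, 29.9, 29.0 and 25.6 CPM in AKI_PBS and 74.1, 59.9 and 62.4 CPM in AKI_PTPi_mEVs. The 3 groups did not overlap, with AKI_PBS lowest and sham highest. It fell 3.25-fold in AKI_PBS (-1.70 ± 0.14, edgeR adjusted p = 1.37e-06, the smallest p of the members in that comparison) and was 2.32-fold higher between the injured groups (1.22 ± 0.14, edgeR adjusted p = 2.2e-05).

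Downstream of Fasn the elongation and desaturation genes differed. Elovl6, which elongates palmitate, had 43.2, 39.8 and 30.5 CPM in sham, 68.5, 49.0 and 46.2 CPM in AKI_PBS and 45.9, 49.3 and 45.6 CPM in AKI_PTPi_mEVs. It rose in AKI_PBS (0.53 ± 0.17, edgeR adjusted p = 0.0207), a call lost without sham replicate 3 (0.39) or AKI_PBS replicate 1 (0.33), and the injured groups overlapped (-0.22 ± 0.17, edgeR adjusted p = 0.312). Scd1, the desaturase that makes oleate and palmitoleate, was low in both injured groups. It had 70.1, 111 and 67.0 CPM in sham, 39.2, 10.5 and 27.4 CPM in AKI_PBS, and 32.7, 33.7 and 18.7 CPM in AKI_PTPi_mEVs. It fell by 1.68 ± 0.40 on the log2 scale in AKI_PBS (edgeR adjusted p = 0.00426), a call lost without a low-count filter (-1.72, edgeR adjusted p = 0.0552). The injured groups overlapped (0.14 ± 0.40, edgeR adjusted p = 0.786). The direction of this difference turned without AKI_PBS replicate 2 (-0.23). Scd2, the desaturase with the same reaction on a neighbouring gene, had 72.9, 60.3 and 54.8 CPM in sham, 58.5, 46.0 and 53.1 CPM in AKI_PBS and 123, 78.5 and 72.0 CPM in AKI_PTPi_mEVs. It was higher in AKI_PTPi_mEVs than in AKI_PBS without overlap (0.80 ± 0.20, edgeR adjusted p = 0.00473), while AKI_PBS and sham overlapped (-0.25 ± 0.20, edgeR adjusted p = 0.29).

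Adipocyte markers, whose cells express Scd1 and Fasn, were lower in sum in both injured groups, but not all moved one way. Their summed level was 146 to 203 CPM in sham, 57.2 to 102 CPM in AKI_PBS and 76.9 to 92.8 CPM in AKI_PTPi_mEVs, and of 8 tested among 10 listed 3 were lower and 1 higher in AKI_PBS than in sham. Adipoq, the adiponectin gene, had 3.23, 4.09 and 4.06 CPM in sham, 0.692, 0 and 0 CPM in AKI_PBS and 0.826, 2.84 and 0.550 CPM in AKI_PTPi_mEVs. Car3 and Cfd were the other markers called lower (-3.06 ± 0.43 and -3.40 ± 0.97, with edgeR adjusted p = 0.000149 and 0.016). Plin4, a lipid droplet gene, rose in AKI_PBS (2.27 ± 0.23, edgeR adjusted p = 5.69e-06), and Cidec and Fabp4 had positive values that did not pass (1.04 ± 0.48 and 0.40 ± 0.29, with edgeR adjusted p = 0.0841 and 0.255). These last 3 were lower in AKI_PTPi_mEVs than in AKI_PBS. Ucp1, a marker of brown fat, had 9.70, 34.7 and 17.5 CPM in sham, 13.1, 0 and 0.353 CPM in AKI_PBS and 19.8, 10.8 and 0.879 CPM in AKI_PTPi_mEVs, and its difference in AKI_PBS against sham did not pass (-2.19 ± 1.43, edgeR adjusted p = 0.229). Adipoq and Ucp1 were at 0 in AKI_PBS replicate 2, and Ucp1 was lowest in AKI_PTPi_mEVs replicate 3, the libraries in which Scd1 was lowest within each injured group. Not all markers followed Scd1 in this way. Adipoq was also at 0 in AKI_PBS replicate 3, where Scd1 had 27.4 CPM. Car3 had 41.7, 26.3 and 62.3 CPM in AKI_PTPi_mEVs and was thus highest in replicate 3. Lep, the leptin gene, was at or near 0 in all 9 libraries. The part of fat attached to the kidney in these values was not tested. Of adrenal cortex markers, which would bring sterol synthesis with them, Cyp11b1 and Cyp11b2 were at 0 counts in all 9 libraries, and the summed list held 15.3 to 18.7 CPM in sham, 29.2 to 39.0 CPM in AKI_PBS and 10.1 to 14.9 CPM in AKI_PTPi_mEVs. Cyp11a1, Cyp21a1, Hsd3b1 and Mc2r held 4 counts or fewer in each library, so of the 8 listed only Star and Akr1b7 were tested. Both rose in AKI_PBS (0.83 ± 0.26 and 1.16 ± 0.25, with edgeR adjusted p = 0.0146 and 0.0019). Both were lower in AKI_PTPi_mEVs than in AKI_PBS (-1.05 ± 0.26 and -1.78 ± 0.26, with edgeR adjusted p = 0.0048 and 0.000148). The part of adrenal tissue in the members' values was not tested. Of the hepatocyte markers Cyp7a1 and Tat were at 0 counts in all libraries, while the 8 listed summed to 107 to 123 CPM in sham, 39.8 to 43.6 CPM in AKI_PBS and 43.5 to 52.6 CPM in AKI_PTPi_mEVs, most of it Ttr and Serpina1a. Both of these were lower in AKI_PBS than in sham (-1.50 ± 0.13 and -1.99 ± 0.25, with edgeR adjusted p = 1.81e-06 and 2.73e-05). Macrophage markers, whose cells express LXR genes, summed to 119 to 161 CPM in sham, 93.1 to 134 CPM in AKI_PBS and 98.9 to 126 CPM in AKI_PTPi_mEVs. The sums overlapped between groups, but single markers moved in opposite directions in AKI_PBS against sham. Csf1r and Adgre1 fell (-1.96 ± 0.16 and -2.44 ± 0.52, with edgeR adjusted p = 1.38e-06 and 0.00158), and Cd68 and Itgam rose (2.28 ± 0.31 and 3.75 ± 0.51, with edgeR adjusted p = 6.39e-05 and 5.85e-05). The part of these cells in the members' values was not tested.

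**Figure D4:**
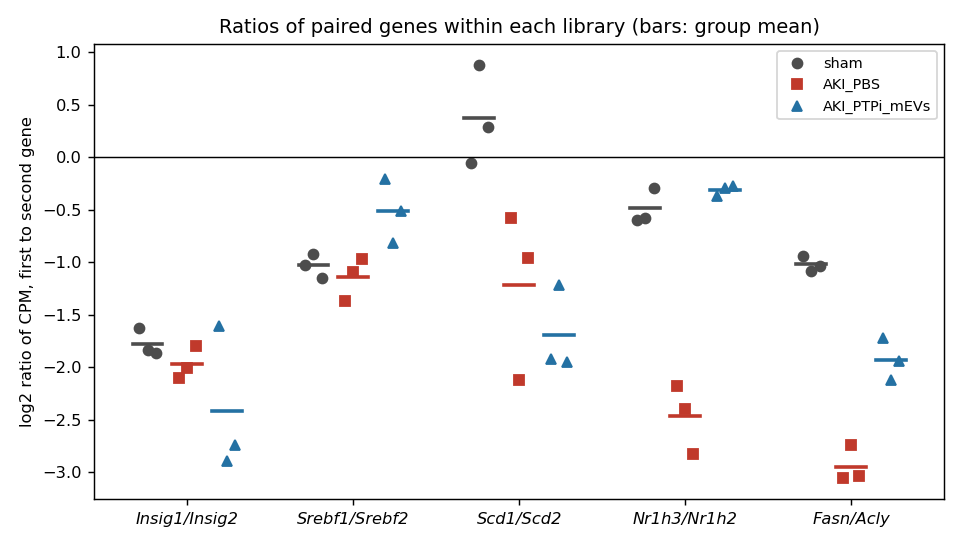
Log2 ratio of the CPM of the first to the second gene of 5 pairs (horizontal axis) in each library, with bars at the mean of each group of 3. The Nr1h3/Nr1h2 and Fasn/Acly ratios are lowest in AKI_PBS without overlap, and the Scd1/Scd2 ratio is below sham in both injured groups.

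Ratios of paired genes within a library do not depend on the scaling of libraries. They are ratios of CPM, not per length, so 0 does not mean equal transcript numbers. The log2 ratio of Nr1h3 to Nr1h2 was -0.49 ± 0.17 (SD) in sham, -2.46 ± 0.33 (SD) in AKI_PBS and -0.31 ± 0.05 (SD) in AKI_PTPi_mEVs. AKI_PBS lay apart from both other groups. The ratio of Fasn to Acly was -1.02 ± 0.07 (SD) in sham, -2.94 ± 0.17 (SD) in AKI_PBS and -1.93 ± 0.20 (SD) in AKI_PTPi_mEVs, so the 3 groups stood apart from each other. The ratio of Scd1 to Scd2 was 0.37 ± 0.47 (SD) in sham, -1.22 ± 0.81 (SD) in AKI_PBS and -1.69 ± 0.41 (SD) in AKI_PTPi_mEVs, with the injured groups overlapping. The ratio of Srebf1 to Srebf2 was -1.03 ± 0.12 (SD) in sham, -1.14 ± 0.20 (SD) in AKI_PBS and -0.51 ± 0.30 (SD) in AKI_PTPi_mEVs, where each library lay above all of the other groups. The ratio of Insig1 to Insig2 overlapped between groups, at -1.77 ± 0.13 (SD), -1.97 ± 0.16 (SD) and -2.41 ± 0.70 (SD). These ratios are descriptions: the smallest two-sided p that an exact permutation test allows for 3 against 3 libraries is 0.1.

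Per kilobase of merged exons, the most abundant members in sham were Hmgcs1 (106 CPM per kb), Acat2 (91.6), Mvd (75.7) and Ebp (74.9), and the least abundant Acaca (1.18), Abca1 (2.23) and Lss (2.77). The merged length takes in every annotated exon, used or not, so these ranks depend on the annotation. Lss, with 10787 merged bases, had a mean of 29.8 CPM in sham, above Fdps with 16.8 CPM. In AKI_PBS Nr1h2 led with 59.8 CPM per kb, followed by Acat2 with 44.2, Acly with 41.2 and Ebp with 39.2, while Hmgcs1 held 27.1 and Mvd 15.3. In AKI_PTPi_mEVs Acat2 (96.6), Hmgcs1 (96.0) and Mvd (82.1) were again the highest, ahead of Nr1h3 (65.7) and Nr1h2 (61.0). The order of Acat2 and Hmgcs1 in sham and in AKI_PTPi_mEVs was not tested.

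AKI_PTPi_mEVs was last compared with sham. Of the 34 members 4 were higher, 3 lower and 27 not called, beside 7.43% higher, 5.79% lower and 13.2% in either direction of all tested genes, and 13 of 34 did not overlap (39.2% of all genes). At least 2-fold, 1 member was higher and 1 lower, beside 2.49% and 3.3% of all genes. The median was 0.12 for members and -0.01 for all genes. The higher members were Sqle, Stard4 (0.70 ± 0.16, edgeR adjusted p = 0.0154), Msmo1 (0.72 ± 0.18, edgeR adjusted p = 0.0224) and Srebf1 (0.76 ± 0.20, edgeR adjusted p = 0.027), and the lower were Ebp, Fasn (-0.48 ± 0.14, edgeR adjusted p = 0.0341) and Scd1 (-1.54 ± 0.40, edgeR adjusted p = 0.0284). The 7 did not overlap between groups. Of the 17 members that fell in AKI_PBS, 12 did not pass here, with values from -0.77 for Idi1 to 0.36 for Lss. Among them were -0.14 ± 0.20 for Hmgcs1, 0.12 ± 0.20 for Mvd, 0.02 ± 0.20 for Nsdhl, 0.27 ± 0.18 for Nr1h3 and 0.36 ± 0.19 for Lss. A value that did not pass does not show equal levels, and Idi1 at -0.77 ± 0.29 (edgeR adjusted p = 0.0991) passed without sham replicate 1 (-1.06). Without AKI_PBS replicate 3 Fdps (0.61), Fdft1 (0.51) and Abca1 (0.84) passed, as did Fdps without AKI_PBS replicate 1 (0.61) and Fdft1 without AKI_PBS replicate 2 (0.51). Without a low-count filter Idi1 (-0.76), Fdps (0.62), Fdft1 (0.51), Abca1 (0.85) and Scd2 (0.55) passed. Fdps (0.58) and Fdft1 (0.48) also passed with only the groups compared in the fit, Fdps with DESeq2 (0.60) and Scd2 with the replicate block (0.52).

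The number of calls against sham changed when single libraries were left out, and Sqle alone of the 7 kept its call under each of 17 alternatives. Without sham replicate 1 or without AKI_PTPi_mEVs replicate 1, 1 member was called higher. Without sham replicate 2 there were 2 higher, and without AKI_PBS replicate 3 there were 7. Calls over all tested genes changed as well. With all libraries 1266 genes were higher. There were 647 without sham replicate 1, 833 without AKI_PTPi_mEVs replicate 1, 520 without sham replicate 2 and 1917 without AKI_PBS replicate 3. A lost call need not mean a smaller difference, as Srebf1 had 0.76 with all libraries and 0.82 without sham replicate 2. The 3 lower calls were lost together without sham replicate 2 or AKI_PTPi_mEVs replicate 2, and 1 of them was left without sham replicate 3 or AKI_PTPi_mEVs replicate 3. Srebf1 lost its call without sham replicate 1 (0.68), 2 (0.82) or 3 (0.79) or AKI_PTPi_mEVs replicate 1 (0.53) or 3 (0.79). Msmo1 lost it without sham replicate 1 (0.66) or 2 (0.67) or AKI_PTPi_mEVs replicate 1 (0.51), and Stard4 without sham replicate 1 (0.66) or AKI_PTPi_mEVs replicate 1 (0.64). Fasn lost it without sham replicate 2 (-0.43) or 3 (-0.45) or AKI_PTPi_mEVs replicate 2 (-0.43) or 3 (-0.44), and with the replicate block (-0.49, edgeR adjusted p = 0.0578). Ebp lost it without any sham library (-0.54, -0.60 and -0.53) and without AKI_PTPi_mEVs replicate 1 (-0.44) or 2 (-0.60). Scd1 lost it without sham replicate 2 (-1.27) and without any AKI_PTPi_mEVs library (-1.65, -1.70 and -1.31), and without a low-count filter (-1.53, edgeR adjusted p = 0.183).

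Another 65 genes of the same pathways, in 4 lists, put the members beside their neighbours. Of the 63 tested, 25 were lower and 13 higher in AKI_PBS than in sham (median -0.22), and 24 were higher and 8 lower in AKI_PTPi_mEVs than in AKI_PBS (median 0.28). Against sham 2 were higher and 4 lower in AKI_PTPi_mEVs. Genes called in either direction were thus 60.3%, 50.8% and 9.52% of those tested, beside 55.7%, 51.1% and 13.2% of all genes, so these shares were near the background. By direction the calls were uneven. More were lower than higher in AKI_PBS against sham, where 27.9% of all genes were lower and 27.8% higher. Between the injured groups more were higher than lower, where 25.4% of all genes were higher and 25.8% lower. By list the called shares were 53.3% to 69.2% in AKI_PBS against sham and 45.5% to 69.2% between the injured groups. Of 13 isoprenoid and sterol accessory genes 8 fell and 1 rose in AKI_PBS, and 9 were higher in AKI_PTPi_mEVs than in AKI_PBS with 4 not called, where the smallest adjusted p were those of Pdss1, Pdss2 and Aacs. Aacs, which turns acetoacetate into a sterol precursor, had 314, 353 and 570 CPM in sham, 34.7, 50.3 and 105 CPM in AKI_PBS and 348, 156 and 203 CPM in AKI_PTPi_mEVs. It fell by 2.70 ± 0.43 on the log2 scale (edgeR adjusted p = 0.00032) and was higher by 1.90 ± 0.42 between the injured groups (edgeR adjusted p = 0.00306). Pdss1, which makes the side chain of ubiquinone from isoprenoids, differed by -1.02 ± 0.19 and 1.12 ± 0.19 (edgeR adjusted p = 0.000706 and 0.000443).

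Of 13 genes of SREBP processing and sterol-regulated degradation 4 fell and 3 rose in AKI_PBS, and 5 were higher and 1 lower between the injured groups. Erlin1, a scaffold of sterol-regulated degradation in the endoplasmic reticulum, had 84.8, 112 and 96.8 CPM in sham, 20.1, 20.8 and 13.8 CPM in AKI_PBS and 134, 147 and 147 CPM in AKI_PTPi_mEVs. Its 3 groups did not overlap, and its differences of -2.42 ± 0.17 and 2.96 ± 0.18 (edgeR adjusted p = 4.77e-07 and 3.19e-07) exceeded those of every member. Mbtps1, the protease that makes the first of the cuts in SREBPs, fell by 0.79 ± 0.15 (edgeR adjusted p = 0.000652) and was higher by 0.62 ± 0.15 between the injured groups (edgeR adjusted p = 0.00385). Of 15 tested LXR partner, oxysterol and transport genes, 4 fell and 4 rose in AKI_PBS, and 4 were higher and 3 lower between the injured groups. Cyp7b1, an oxysterol hydroxylase, had 135, 130 and 213 CPM in sham, 6.14, 13.6 and 15.7 CPM in AKI_PBS and 29.0, 17.1 and 16.0 CPM in AKI_PTPi_mEVs. Like Scd1 it was lower than sham in both injured groups (-3.75 ± 0.35 and -2.93 ± 0.33, with edgeR adjusted p = 5.23e-06 and 0.000447) and did not pass between them (0.82 ± 0.34, edgeR adjusted p = 0.06).

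Of 22 genes of lipogenesis and glycerolipid synthesis 9 fell and 5 rose in AKI_PBS, and 6 were higher and 4 lower between the injured groups. Acss2, which makes acetyl-CoA from acetate, had 345, 425 and 471 CPM in sham, 47.8, 41.7 and 94.5 CPM in AKI_PBS and 313, 274 and 396 CPM in AKI_PTPi_mEVs. It fell by 2.75 ± 0.28 on the log2 scale and was higher by 2.42 ± 0.28 between the injured groups (edgeR adjusted p = 7.17e-06 and 2.59e-05), whereas Acly, the source of acetyl-CoA from citrate, passed in neither. Thrsp, a lipogenic factor abundant in fat and liver, had 25.5 to 39.6 CPM in sham, 3.53 to 7.29 CPM in AKI_PBS and 3.19 to 6.79 CPM in AKI_PTPi_mEVs. It was lower than sham in both injured groups (-2.70 ± 0.31 and -2.63 ± 0.31, with edgeR adjusted p = 1.57e-05 and 0.0004), beside the adipocyte markers given above. Pnpla2, the triglyceride lipase in the list, moved the other way, with 99.95 to 128 CPM in sham, 297 to 511 CPM in AKI_PBS and 106 to 119 CPM in AKI_PTPi_mEVs (1.75 ± 0.19 and -1.77 ± 0.19, with edgeR adjusted p = 1.03e-05 and 1.46e-05).

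Some members share sequence or exons with other genes, and their counts are uncertain to that extent. Acat3, a close copy of Acat2, held 14.5 to 24.6 CPM in sham, 42.0 to 107 CPM in AKI_PBS and 46.3 to 103 CPM in AKI_PTPi_mEVs, and it rose in AKI_PBS where Acat2 fell (1.91 ± 0.37, edgeR adjusted p = 0.00112). Exons of Fdps overlap those of Gm43738 on the same strand over 26.7% of its bases, and those of Tm7sf2 overlap Vps51 on the same strand over 12.1%. Transcripts on the opposite strand overlap 12.1% of Hmgcs1 and 13.2% of Scap. Scd3, Scd4 and Idi2, copies of Scd1, Scd2 and Idi1, held under 1 CPM in each library.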

How the data were processed

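RNA from 9 mouse kidney libraries was extracted with phenol-chloroform and made into libraries with a Tn5-based kit, per the labels' protocols. The authors deposited whole-number counts per gene, made with STAR and HTSeq (versions not stated) per the submitters' processing notes. The build in those notes, GRCh38.p14, belongs to human, whereas every identifier is a mouse Ensembl identifier, and this was left unsettled. The strand setting is not stated.

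Symbols were found for 52073 of 56923 identifiers. The 34 members and the 65 other pathway genes were chosen with earlier results of these data known. All members were to be named, and of each other list up to 3 genes per comparison with the smallest adjusted p; the text gives those needed. In R 4.3.3, edgeR 4.0.16 (filterByExpr by group, TMM, robust glmQLFit, glmQLFTest) was fitted to all 9 libraries with 6 residual degrees of freedom, and p-values were Benjamini-Hochberg adjusted over 17036 genes. The procedure was tested on simulated data in which a small share of genes changed, evenly in both directions. In the data here 55.7% of tested genes were called in AKI_PBS against sham, which the simulation did not cover. The standard error is the log2 fold change divided by the root of the F statistic. Exon lengths were merged over GENCODE M21, and promoters were taken from RefSeq (GRCm38.p6). Alternatives were other size factors (RLE, library totals), DESeq2 1.42.0, limma 3.58.1 (voom), no filter, a mean count of at least 50, only the groups compared, a replicate block, a log2 fold change of at least 1 and each library left out. Within groups no 2 libraries agreed within sampling noise. Figures were drawn in Python 3.11.15 with matplotlib 3.10.9.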

Additional observations from a re-analysis of the deposited data

How the results depend on the processing

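Of the calls among the 34 members, 18 of 23 in AKI_PBS against sham, 16 of 20 in AKI_PTPi_mEVs against AKI_PBS and 1 of 7 in AKI_PTPi_mEVs against sham held under all 17 alternatives, which were 8 other settings and 9 omissions of a library, the fold threshold not counted. With each library left out, AKI_PBS against sham gave 4 to 7 members higher and 16 to 19 lower, and 9 to 13 and 18 to 28 other pathway genes. AKI_PTPi_mEVs against AKI_PBS gave 15 to 19 members higher and 1 to 2 lower, and 19 to 26 and 5 to 9 other pathway genes. AKI_PTPi_mEVs against sham gave 1 to 7 members higher and 0 to 3 lower, and 0 to 6 and 2 to 6 other pathway genes. Over all tested genes this last comparison gave 488 to 1917 higher and 390 to 1478 lower. A log2 fold change of at least 1 left 0 members and 4 other genes higher and 10 other genes lower in AKI_PBS against sham. It left 0 members lower and 7 and 3 other genes higher and lower between the injured groups, and 1 and 1 members and 0 and 2 other genes in AKI_PTPi_mEVs against sham. Between the injured groups, 3 members were lower with library totals or the stricter filter, and 5 other genes were lower without a filter. In AKI_PTPi_mEVs against sham, members called higher rose to 8 without a filter. Other genes called higher there were 1 with library totals or the stricter filter, 5 with DESeq2 or only the groups compared, 4 with limma voom or without a filter, and 8 were lower with only the groups compared. The cause of these shifts was not tested. Library totals moved the median of all genes from 0.03 to 0.11 in AKI_PBS against sham and from -0.03 to -0.13 between the injured groups.

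Values that changed sign were those near 0 that did not pass. With library totals and with the stricter filter, between the injured groups, Tm7sf2 was at -0.093 and -0.020 and Nr1h2 at -0.079 and -0.006. Nsdhl in AKI_PTPi_mEVs against sham was at -0.036 with the stricter filter and -0.001 with only the groups compared. With a library left out, AKI_PBS against sham gave -0.57 to 0.015 for Abca1 and 0.00 to 0.11 for Nr1h2. Between the injured groups the ranges were -0.045 to 0.39 for Fdps, -0.30 to 0.34 for Insig1, -0.24 to 0.096 for Msmo1, -0.23 to 0.59 for Scd1 and -0.063 to 0.11 for Tm7sf2. In AKI_PTPi_mEVs against sham they were -0.51 to 0.21 for Abcg1, -0.24 to 0.050 for Acaca, -0.039 to 0.20 for Acat2, -0.019 to 0.38 for Dhcr7, -0.32 to 0.050 for Hmgcs1, -0.023 to 0.33 for Mvd, -0.015 to 0.20 for Mylip and -0.094 to 0.15 for Nsdhl.

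No pairing of libraries by replicate number was seen. Deviations of same-numbered libraries from their group means correlated at -0.187 to 0.111 over 9 pairs, beside -0.171 to 0.146 over 18 pairs of different number. Of 9 libraries 2 correlated best with their own number. So few libraries cannot exclude a weak shared effect. With the replicate number as a block, 5 members were higher and 17 lower in AKI_PBS against sham, 17 higher and 1 lower in AKI_PTPi_mEVs against AKI_PBS, and 5 higher and 2 lower in AKI_PTPi_mEVs against sham.

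With 3 libraries per group, the spread between libraries limits what can be seen, and members that did not pass are not shown to be equal.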
